A study of Homo sapiens with 30 samples.

Results

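This account describes 8 genes through which peroxisome proliferator-activated receptors (PPARs) are known to act on fat storage and fat burning: PLIN2 and HILPDA of the lipid droplet, CPT1A and CPT2 of the carnitine shuttle, ACADVL and HADHA of mitochondrial beta-oxidation, PDK4 of the switch away from glucose, and ANGPTL4, a secreted inhibitor of lipoprotein lipase. They are the 8 rows, of 60675 in the table of estimated read counts, whose Ensembl identifiers map to these symbols. The cells were A549, an established line from a human non-small cell lung carcinoma, exposed for 24 h to ethanol (70%) extracts of Korean herbal formulas. A gene is called higher or lower here where its Benjamini-Hochberg adjusted p, over all 17459 genes tested with edgeR's quasi-likelihood test, was below 0.05. All 8 genes passed the filter on low counts and were tested in each comparison.

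The study holds 30 libraries in 13 groups: a vehicle group with 3 libraries, and extracts of Soshiho-tang, Yijin-tang, Okbyeongpung-san and Soyo-san, each at 500, 100 and 20 µg/mL. Soshiho-tang and Yijin-tang have 3 libraries at each dose, Okbyeongpung-san has 2 and Soyo-san has 1, so Soyo-san levels are listed without a test. All groups received 24 h of exposure, and the vehicle was DMSO, at 0.1% in the sample labels and 2% in the series text. Library titles carry a batch letter: the 3 Soyo-san libraries and replicate 3 of each Okbyeongpung-san dose are of batch D, and the rest, vehicle included, are of batch E. What the letters stand for and whether replicates are separate cultures is not stated, so p-values measure the spread between these libraries, which may be technical. The comparisons ask how each dose differs from vehicle, how 500 differs from 20 µg/mL, and how 3 extracts differ from one another at 500 µg/mL.

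PPARA, PPARD and PPARG are nuclear receptors that bind fatty acids and, paired with a retinoid X receptor (RXR), bind DNA at a direct repeat of AGGTCA with a 1-base spacer (DR1). Their targets include coat proteins of the lipid droplet, a store of neutral lipid, and the enzymes that carry fatty acyl groups into mitochondria and shorten them. Several of the 8 genes also answer to other regulators: HILPDA, ANGPTL4 and PLIN2 to hypoxia-inducible factors, and PDK4 to FOXO proteins and the glucocorticoid receptor.

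The 250 bases before the start of PLIN2, ANGPTL4, ACADVL and PDK4 are shown because these genes separated the extracts or were higher at each dose. They come from RefSeq on build GRCh38.p14, whose table held promoters for 7 of the 8 genes. These starts can differ from those of the gene spans printed further below, which are from GENCODE 29. The windows shown for PLIN2, ANGPTL4 and ACADVL lie inside those spans. Each is written 5′ to 3′ on the gene's strand, with the hypoxia response core ACGTG, searched on both strands, in capitals. PLIN2 lies on the minus strand (chr9:19127493-19127742), ANGPTL4 on the plus strand (chr19:8363905-8364154), ACADVL on the plus strand (chr17:7219688-7219937, the second of 2 starts in the table) and PDK4 on the minus strand (chr7:95596517-95596766).
PLIN2: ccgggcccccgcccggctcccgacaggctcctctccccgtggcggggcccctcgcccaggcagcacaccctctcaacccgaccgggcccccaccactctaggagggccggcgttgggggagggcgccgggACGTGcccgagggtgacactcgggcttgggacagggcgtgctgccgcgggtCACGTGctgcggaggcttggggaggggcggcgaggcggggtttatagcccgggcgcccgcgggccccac
ANGPTL4: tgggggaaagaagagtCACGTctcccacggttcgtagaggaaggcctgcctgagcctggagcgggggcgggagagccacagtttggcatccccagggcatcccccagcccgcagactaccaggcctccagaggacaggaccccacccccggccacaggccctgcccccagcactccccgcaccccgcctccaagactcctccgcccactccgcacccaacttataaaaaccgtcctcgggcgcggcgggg
ACADVL: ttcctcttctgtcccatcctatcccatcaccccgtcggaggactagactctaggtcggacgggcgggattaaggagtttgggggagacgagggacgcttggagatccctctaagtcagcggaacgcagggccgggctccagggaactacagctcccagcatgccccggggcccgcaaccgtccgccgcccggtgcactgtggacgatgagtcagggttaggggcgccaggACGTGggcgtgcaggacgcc
PDK4: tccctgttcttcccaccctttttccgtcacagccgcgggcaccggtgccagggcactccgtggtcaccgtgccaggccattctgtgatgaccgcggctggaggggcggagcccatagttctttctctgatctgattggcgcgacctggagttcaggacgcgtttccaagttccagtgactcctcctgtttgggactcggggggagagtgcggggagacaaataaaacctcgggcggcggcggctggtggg
PLIN2 held ACGTG 3 times, counted over both strands, at 120, 69 and 68 bases before its start, and the last 2 are the same 6 letters read from either strand. ANGPTL4 held it once, at 234 bases, and the second ACADVL start once, at 20 bases. PDK4 held none, and neither did CPT1A, CPT2, HADHA or the first ACADVL start. Of all 35116 promoter windows of this length, 18.5% held ACGTG on one strand or the other. The DR1, AGGTCA repeated in the same direction after 1 free base, was in none of the windows of these genes and in 0.0171% of all windows. A looser form with AGGNCA in both places was in none of them and in 0.268% of all. The amino acid response core TGATGNAA (3.14% of all windows) and the glucocorticoid response element, AGAACA and TGTTCT with 3 free bases between (0.00285%), were also in none. Both strands were searched for each. None of these motifs was searched for outside these windows.

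Libraries held between 19833106 and 22327632 counts in vehicle and between 24560758 and 38008449 in treated groups. Mitochondrial messenger RNA made up 10.5% to 10.9% of counts in vehicle and 6.22% to 9.89% in treated libraries, so depth and this share separate vehicle from every treated library, and their part in the differences from vehicle was not tested. In such bulk RNA, fewer cells that express a gene and less of its RNA per cell cannot be told apart. The 2 libraries at 500 µg/mL of Okbyeongpung-san stood apart from each other, with a chi-square per degree of freedom of 42.28 between them against 2.07 to 19.24 between other replicates. Replicate 2 had 38008449 counts and a mitochondrial share of 9.89%, and replicate 3 had 27540403 counts and 6.73%. Chi-square values between vehicle libraries were 2.07 to 2.21, and those between replicates of Soshiho-tang and Yijin-tang 3.72 to 19.24. The fit reported here shared its estimate of spread over all groups. Epithelial keratins fitted the label (KRT8 at 3435 CPM in vehicle; CPM are counts for each 1000000 counts of the library, adjusted by the trimmed mean of M values, TMM), and the adipocyte markers summed to 6.55 to 7.62 CPM in vehicle and 5.21 to 9.28 in treated libraries, the hepatocyte markers to 4.42 to 5.24 and 4.54 to 7.58. ADIPOQ, which defines adipocytes, and NKX2-1 of alveolar epithelium were at 0 in vehicle. The alveolar markers together summed to 28.5 to 30.5 CPM in vehicle and 24.2 to 40.9 in treated libraries. Of 3 of them tested, 2 were called higher at 500 µg/mL of Soshiho-tang, where 17.2% of all genes were. In the same order fibroblast markers summed to 43.1 to 47.4 and 31.2 to 47.7 CPM. Macrophage and immune markers summed to 15.8 to 18.7 and 10.7 to 24.3, and endothelial markers to 0.348 to 0.524 and 0.212 to 0.593.

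In vehicle all 8 genes were read, at levels that ranged over more than an order of magnitude. Per kilobase of the longest transcript in the GENCODE 29 basic set, HADHA stood highest at 82.5 CPM per kilobase and ACADVL next at 61.3. HILPDA (15.5), CPT1A (15.5), ANGPTL4 (11.1), PDK4 (9.25) and PLIN2 (7.77) followed on the same scale, and CPT2 was lowest at 4.46. The ranges of HILPDA and CPT1A over the 3 vehicle libraries overlapped, and those of the other neighbours in this order did not. ACADVL was above its highest vehicle library in all 27 treated libraries, a pattern that 3.61% of all genes showed. HADHA, CPT1A and PLIN2 were so in 26, ANGPTL4 in 22, HILPDA in 21, and PDK4 and CPT2 in 14. No gene of the 8 was called lower in any of the 9 comparisons with vehicle. Over all genes, lower calls made up 16%, 5.19% and 3.96% for Soshiho-tang at 500, 100 and 20 µg/mL, 7.56%, 6.82% and 5.16% for Yijin-tang, and 7.76%, 4.74% and 4.95% for Okbyeongpung-san.

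**Figure D1:**
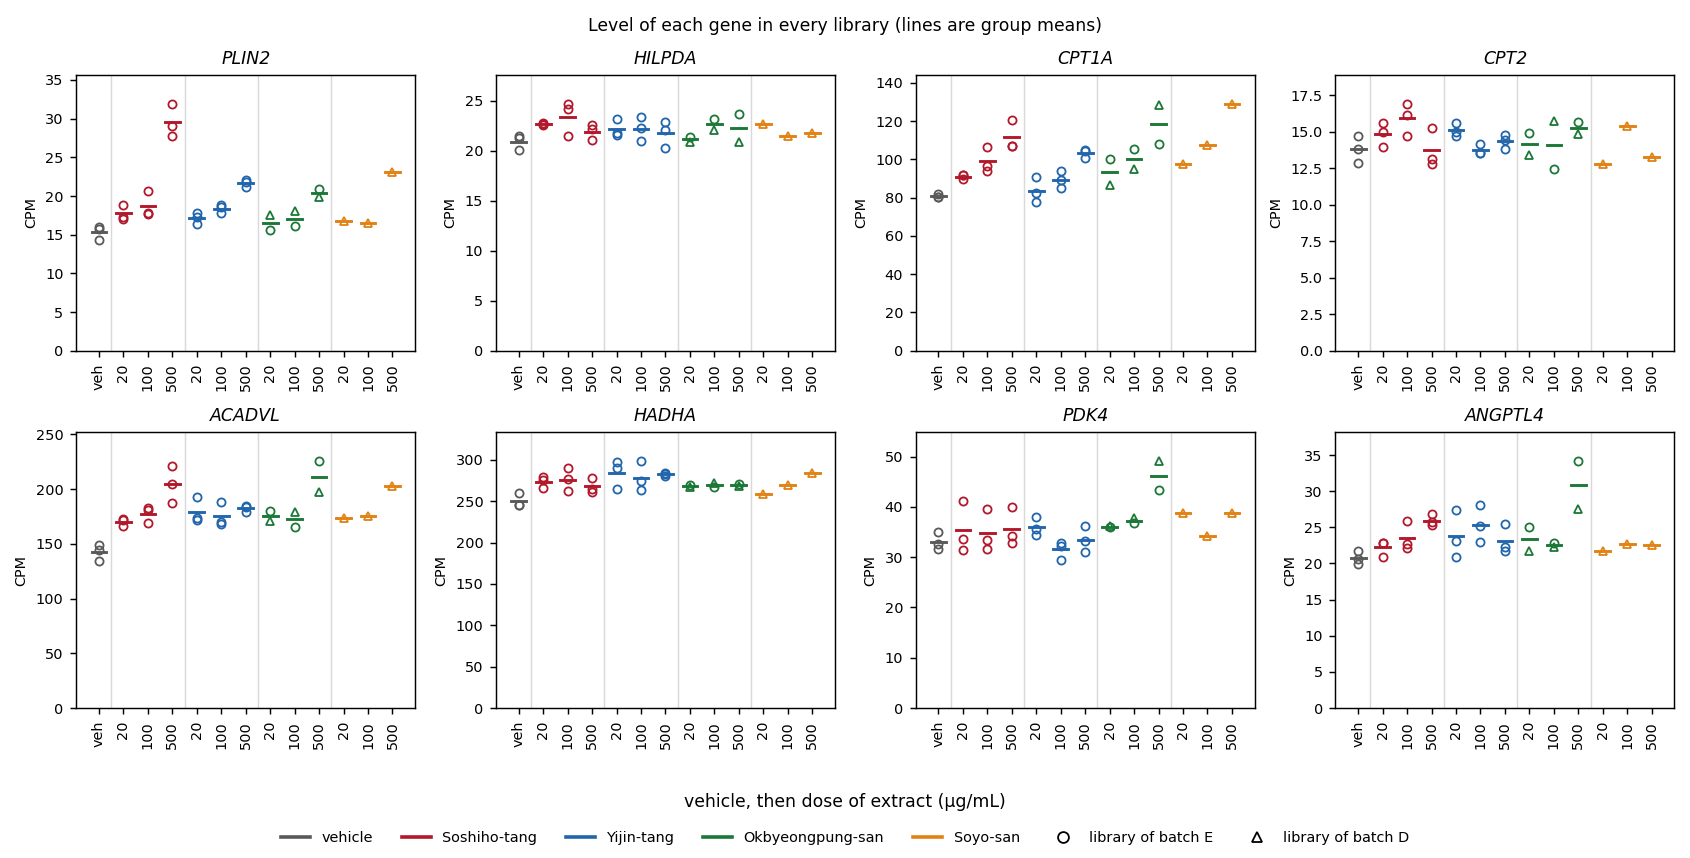
Level of each gene in CPM (vertical axes, from 0) in every library, with vehicle first and then 20, 100 and 500 µg/mL of each extract; points are libraries (circles batch E, triangles batch D) and short lines are group means. PLIN2 stands highest at 500 µg/mL of Soshiho-tang, PDK4 and ANGPTL4 at 500 µg/mL of Okbyeongpung-san, and ACADVL is above vehicle in all 27 treated libraries.

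PLIN2 (chr9:19108375-19149290, minus strand, GRCh38), also called adipophilin, coats lipid droplets in most cell types and is degraded when no lipid is there to bind. In vehicle it read 14.3, 15.8 and 16.0 CPM, a mean of 15.3 ± 0.928 (SD, n = 3). With 500 µg/mL of Soshiho-tang it read 27.8, 29.04 and 31.9 CPM, all far above vehicle and above every other library of the series. The log2 fold change against vehicle was 0.95 ± 0.07 (SE; 1.93-fold, adjusted p = 6.72e-10). Its level was also higher at 500 µg/mL of Yijin-tang, at 21.9, 21.1 and 22.0 CPM (log2 fold change 0.50 ± 0.07, adjusted p = 0.000116). Okbyeongpung-san at this dose gave 20.9 and 19.8 CPM (0.41 ± 0.08, adjusted p = 0.00231), again with no overlap with vehicle. With a fit on these 2 groups alone that last adjusted p was 0.0624. The single Soyo-san library at 500 µg/mL read 23.1 CPM, between the Soshiho-tang and the Yijin-tang libraries.

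At lower doses PLIN2 sat just above vehicle. With 100 µg/mL of Soshiho-tang it read 17.8, 20.6 and 17.6 CPM (log2 fold change 0.28 ± 0.08, adjusted p = 0.0189), and at 20 µg/mL 18.9, 17.3 and 17.0 CPM (0.21 ± 0.08, adjusted p = 0.0886). The call at 100 µg/mL was lost without vehicle replicate 1 (adjusted p = 0.0986) and without replicate 2 of that dose (0.112). PLIN2 at 100 µg/mL of Yijin-tang read 17.7, 18.8 and 18.5 CPM (0.26 ± 0.08, adjusted p = 0.0214), a call lost without vehicle replicate 1 (0.112) or without replicate 2 (0.0595) or 3 (0.0762) of that dose. At 20 µg/mL of Yijin-tang its log2 fold change was 0.16 (adjusted p = 0.173), with no overlap with vehicle. Okbyeongpung-san gave 0.16 at 100 µg/mL (adjusted p = 0.261) and 0.12 at 20 µg/mL (0.431), where 1 of 2 libraries lay within the vehicle range. Soyo-san read 16.5 CPM at 100 and 16.8 CPM at 20 µg/mL. In each extract the PLIN2 mean was highest at 500 µg/mL.

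HILPDA (chr7:128455849-128458418, plus strand, GRCh38), a small droplet protein that restrains the lipase PNPLA2, was not called in any comparison. It read 21.3, 20.0 and 21.5 CPM in vehicle and between 20.3 and 24.7 CPM in the 27 treated libraries. Its log2 fold changes against vehicle ran from 0.02 to 0.16, and at 500 µg/mL the 95% interval was -0.07 to 0.21 for Soshiho-tang. The highest value, 0.16 ± 0.07 at 100 µg/mL of Soshiho-tang, had an adjusted p of 0.125, and of 0.0371 without replicate 3 of that dose. HILPDA shares its strand with the transcripts AC010655.2 and AC010655.4, both under 1 CPM on average, so its reads could be split with them.

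CPT1A (chr11:68754620-68844410, minus strand, GRCh38), which makes acylcarnitines at the outer mitochondrial membrane and sets the rate of fatty acid entry, was higher at 500 µg/mL of all 3 replicated extracts. Vehicle libraries read 80.6, 80.2 and 81.8 CPM, a mean of 80.8 ± 0.855 (SD, n = 3). Soshiho-tang at 500 µg/mL gave 121, 107 and 107 CPM (log2 fold change 0.46 ± 0.07, adjusted p = 2.74e-05). Yijin-tang gave 104, 105 and 101 CPM (0.35 ± 0.07, adjusted p = 0.00219), and Okbyeongpung-san 108 and 128 CPM (0.55 ± 0.08, adjusted p = 0.00012). None of these 8 libraries overlapped vehicle. Without replicate 2 of Okbyeongpung-san the value was 0.67 and without replicate 3 it was 0.43, or 0.42 within batch E, with the call kept each time. The Soyo-san library at 500 µg/mL read 129 CPM, the highest CPT1A level of the 30 libraries.

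The group means of CPT1A were ordered by dose in each of the 3 extracts with replicates. The means at 20, 100 and 500 µg/mL were 91.0, 98.9 and 112 CPM for Soshiho-tang, 83.7, 89.2 and 103 CPM for Yijin-tang and 93.5, 100.1 and 118 CPM for Okbyeongpung-san. Soyo-san read 97.4, 107 and 129 CPM at these doses. It was called at 100 µg/mL for Soshiho-tang (log2 fold change 0.29 ± 0.07, adjusted p = 0.0132) and Okbyeongpung-san (0.31 ± 0.08, adjusted p = 0.0172), and not for Yijin-tang (0.14, adjusted p = 0.204). The Soshiho-tang call was lost without replicate 1 of that dose (0.0926). The Okbyeongpung-san call was lost without vehicle replicate 2 (0.0553) and without replicate 2 of that dose (0.255). With an offset for transcript length and GC content the Yijin-tang value passed (0.23, 0.0254). At 20 µg/mL CPT1A was not called, with log2 fold changes of 0.17 for Soshiho-tang, 0.05 for Yijin-tang and 0.21 for Okbyeongpung-san. Other fits did call it at that dose. For Okbyeongpung-san it passed with the replicate number as a block (0.24, adjusted p = 0.03), within batch E (0.32, 0.0468), without a filter (0.0367), with the offset (0.0131) and with the 2 groups alone (0.00432). For Soshiho-tang it passed with the offset (0.0329) and with the 2 groups alone (0.00896). One library at 20 µg/mL of Yijin-tang, at 77.7 CPM, lay below all vehicle libraries.

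CPT2 (chr1:53196429-53214197, plus strand, GRCh38), the partner enzyme on the inner membrane that returns the acyl group to coenzyme A, showed no called difference. It read 13.8, 14.7 and 12.8 CPM in vehicle and between 12.5 and 16.9 CPM in treated libraries, with log2 fold changes of -0.00 to 0.21. The 95% interval of CPT2 against vehicle at 500 µg/mL was -0.18 to 0.18 for Soshiho-tang, -0.12 to 0.23 for Yijin-tang and -0.04 to 0.34 for Okbyeongpung-san. CPT2 overlaps C1orf123 on the other strand (20.5 CPM on average), and the strand setting of the counting is not given in the sources used here, so reads could be assigned to either gene.

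ACADVL (chr17:7217125-7225273, plus strand, GRCh38), the acyl-CoA dehydrogenase that takes the first oxidation step on very long chains, was the gene called in all 9 comparisons with vehicle. Vehicle libraries read 149, 134 and 144 CPM. At 20 µg/mL, the lowest dose, it already stood at 172, 167 and 172 CPM for Soshiho-tang (log2 fold change 0.26 ± 0.07, adjusted p = 0.0166). At that dose Yijin-tang gave 172, 174 and 193 CPM (0.33 ± 0.06, adjusted p = 0.00243) and Okbyeongpung-san 180.3 and 171 CPM (0.31 ± 0.07, adjusted p = 0.00872). All of these libraries lay above all vehicle libraries. The Soshiho-tang call at 20 µg/mL was lost without vehicle replicate 2 (0.102) or replicate 1 of that dose (0.0723), and the Okbyeongpung-san call without vehicle replicate 2 (0.0528), replicate 2 (0.131) or replicate 3 (0.0536) of that dose. The Yijin-tang call held with any 1 library left out, at an adjusted p of at most 0.0297.

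ACADVL at 500 µg/mL reached 188, 221 and 205 CPM for Soshiho-tang (0.52 ± 0.07, adjusted p = 1.17e-06) and 225 and 198 CPM for Okbyeongpung-san (0.57 ± 0.07, adjusted p = 2.2e-05). Yijin-tang gave 183, 179 and 184 CPM (0.36 ± 0.06, adjusted p = 0.000785). The Soyo-san libraries read 203, 175 and 174 CPM at 500, 100 and 20 µg/mL. At 100 µg/mL the log2 fold changes were 0.32 for Soshiho-tang (adjusted p = 0.00348), 0.30 for Yijin-tang (0.00345) and 0.28 for Okbyeongpung-san (0.0168). The last of these was lost within batch E (0.149) and without vehicle replicate 2 (0.0848), replicate 2 (0.0769) or replicate 3 (0.221) of that dose. ACADVL overlaps DLG4 on the other strand, which averaged 10.1 CPM.

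HADHA (chr2:26190635-26244726, minus strand, GRCh38), the alpha subunit of the mitochondrial trifunctional protein that carries out the later steps on long chains, differed least among the genes that were called at all. It read 246, 260.2 and 245 CPM in vehicle and between 259 and 298 CPM in treated libraries. In the fit reported here it was called for Yijin-tang, with log2 fold changes of 0.17 ± 0.05 at 500 µg/mL (adjusted p = 0.0224), 0.15 ± 0.05 at 100 µg/mL (0.0443) and 0.18 ± 0.05 at 20 µg/mL (0.0248). For Soshiho-tang they were 0.10 (adjusted p = 0.139), 0.14 (0.078) and 0.13 (0.124) in the same order of doses, and for Okbyeongpung-san 0.11 (0.211), 0.11 (0.247) and 0.10 (0.278). Some of these passed in other fits: Soshiho-tang at 100 µg/mL with the replicate number as a block (0.0489) and with an offset for transcript length and GC content (0.0418), and at 20 µg/mL with that offset (0.04) and with a fit on the 2 groups alone (0.0393). Okbyeongpung-san passed at 100 µg/mL (0.0346) and at 20 µg/mL (0.0346) with the 2 groups alone. The direct comparisons of the extracts at 500 µg/mL did not call HADHA. Each Yijin-tang call rested on vehicle replicates 1 and 3: without one of them the adjusted p was 0.0796 or 0.0855 at 500 µg/mL, 0.136 or 0.144 at 100 µg/mL and 0.089 or 0.0988 at 20 µg/mL. It was also lost at 500 µg/mL without replicate 1 (0.0592), 2 (0.0528) or 3 (0.0731) of that group, at 100 µg/mL without replicate 2 (0.0618) or 3 (0.275), and at 20 µg/mL without replicate 2 (0.0678) or 3 (0.15). With a fit on the 2 groups alone the adjusted p was 0.072 at 100 µg/mL and 0.0786 at 20 µg/mL. HADHA starts head to head with HADHB, the beta subunit, and overlaps it on the other strand (103 CPM).

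PDK4 (chr7:95583499-95596491, minus strand, GRCh38), a kinase that shuts the pyruvate dehydrogenase complex and so spares glucose, was called higher than vehicle in 1 comparison, at 500 µg/mL of Okbyeongpung-san. In vehicle it read 35.0, 31.6 and 32.6 CPM, and at 500 µg/mL of Okbyeongpung-san 43.3 and 49.0 CPM. Both libraries lay above all others of the series. The log2 fold change was 0.48 ± 0.10 (1.40-fold, adjusted p = 0.00405), and it was 0.57 without replicate 2 (0.008), 0.40 without replicate 3 (0.0217) and 0.38 within batch E (0.0411). At 500 µg/mL Soshiho-tang gave 34.2, 32.9 and 39.9 CPM (0.11 ± 0.10, adjusted p = 0.399) and Yijin-tang 31.0, 33.1 and 36.1 CPM (0.02 ± 0.10, adjusted p = 0.941), both overlapping vehicle. Replicate 3 was the highest library in each of the Soshiho-tang groups, at 39.9, 39.6 and 41.1 CPM for 500, 100 and 20 µg/mL. At 100 µg/mL of Okbyeongpung-san PDK4 read 36.8 and 37.7 CPM (0.17 ± 0.11, adjusted p = 0.328, or 0.0305 with these 2 groups alone), and Soyo-san read 38.8, 34.2 and 38.9 CPM at 500, 100 and 20 µg/mL.

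ANGPTL4 (chr19:8363289-8374373, plus strand, GRCh38), a secreted protein that inactivates lipoprotein lipase and so limits uptake of fat from lipoproteins, had its highest group mean at 500 µg/mL of Okbyeongpung-san. Vehicle libraries read 20.6, 20.0 and 21.8 CPM, and those 2 libraries read 34.1 and 27.6 CPM. The log2 fold change was 0.57 ± 0.11 (1.49-fold, adjusted p = 0.00143). It rested in part on replicate 2: without that library it was 0.41 (adjusted p = 0.0507), and without replicate 3 it was 0.73 (0.000304), or 0.71 within batch E (0.000697). At 500 µg/mL of Soshiho-tang ANGPTL4 read 25.7, 26.8 and 25.3 CPM (0.32 ± 0.10, adjusted p = 0.0157), a call lost without vehicle replicate 2 (0.0629) or replicate 2 of that group (0.0535). Yijin-tang gave 25.5, 21.8 and 22.2 CPM (0.15 ± 0.10, adjusted p = 0.328), of which the lowest lay within the vehicle range. At 100 µg/mL of Yijin-tang it read 22.9, 25.1 and 28.0 CPM (0.29 ± 0.10, adjusted p = 0.0543). It passed in 7 of the 14 alternatives to that fit: with no filter (0.00475), a batch term (0.0381), batch E only (0.0371), the offset for length and GC content (0.00478), the 2 groups alone (0.0331) and DESeq2 (0.0461), and without replicate 1 of that dose (0.032). Soyo-san stayed between 21.7 and 22.8 CPM. The antisense gene RAB11B-AS1 overlaps the end of ANGPTL4 on the other strand and averaged 0.706 CPM.

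**Figure D2:**
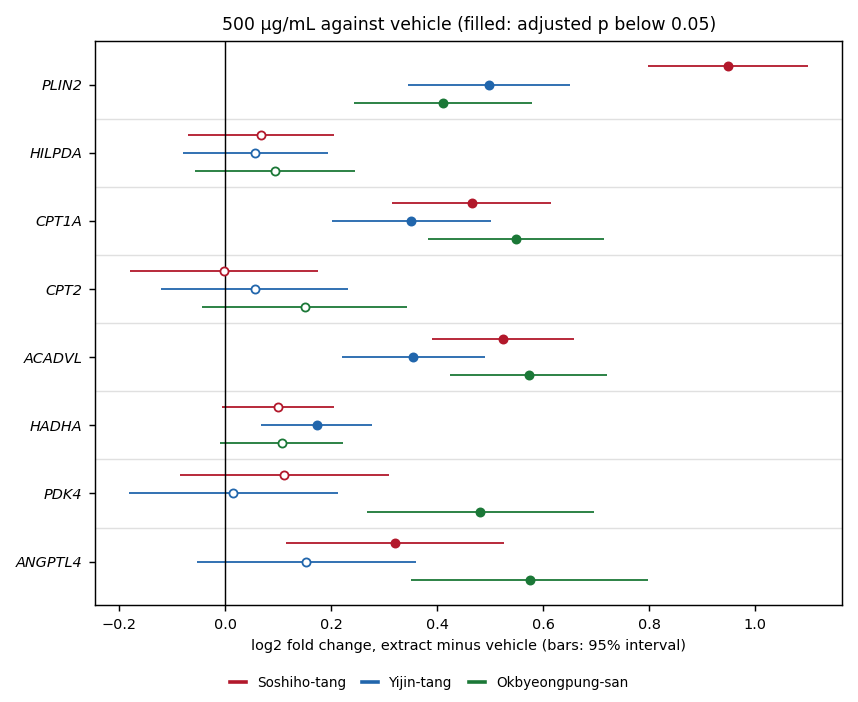
Log2 fold change against vehicle (horizontal axis) of the 8 genes at 500 µg/mL of 3 extracts, with 95% intervals as bars; filled points have an adjusted p below 0.05. PLIN2 reaches 0.95 for Soshiho-tang, while PDK4 is filled for Okbyeongpung-san only and HILPDA and CPT2 have no filled point.

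Counted over the 8 genes, 4 were higher and none lower at 500 µg/mL of Soshiho-tang, where 17.2% of all 17459 genes tested were called higher. The 4 were PLIN2, CPT1A, ANGPTL4 and ACADVL, and the median log2 fold change of the 8 was 0.22 against 0.01 for all genes. With Yijin-tang at that dose 4 were higher (8.12% of all genes) with a median of 0.16, namely PLIN2, CPT1A, ACADVL and HADHA. With Okbyeongpung-san 5 were higher (7.19% of all genes) with a median of 0.45, which were PLIN2, CPT1A, ANGPTL4, PDK4 and ACADVL. All treated libraries lay above all vehicle libraries for 5 of the 8 genes with Soshiho-tang (25.7% of all genes), 4 with Yijin-tang (20.4%) and 7 with Okbyeongpung-san (20.9%). These comparisons share the vehicle libraries, so their counts are not independent of each other.

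At 100 µg/mL 3 of the 8 genes were higher with Soshiho-tang (5.57% of all genes), namely PLIN2, CPT1A and ACADVL. With Yijin-tang 3 were higher (7.89%), PLIN2, ACADVL and HADHA, and with Okbyeongpung-san 2 (4.75%), CPT1A and ACADVL. At 20 µg/mL ACADVL was the 1 gene called with Soshiho-tang (4.06%) and with Okbyeongpung-san (5.21%), and ACADVL and HADHA were the 2 called with Yijin-tang (5.09%). With 1 library left out in turn these counts ran from 0 to 1 for Soshiho-tang and Okbyeongpung-san at 20 µg/mL, from 1 to 2 for Yijin-tang at 20 µg/mL, from 1 to 4 for Yijin-tang and 0 to 2 for Okbyeongpung-san at 100 µg/mL.

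The comparison of 500 with 20 µg/mL does not use the vehicle libraries. For Soshiho-tang 3 of the 8 genes were higher at 500 µg/mL and none lower (10.3% and 10.2% of all genes). PLIN2 differed by 0.74 ± 0.07 on the log2 scale (1.67-fold, adjusted p = 2.7e-08), CPT1A by 0.29 ± 0.07 (0.00439) and ACADVL by 0.27 ± 0.06 (0.00404). Each of these kept its call with any 1 library left out. ANGPTL4 had a value of 0.22 ± 0.10 (adjusted p = 0.107), with all libraries at 500 above all at 20 µg/mL. For Yijin-tang 2 were higher and none lower, against 0.286% and 0.418% of all genes: PLIN2 by 0.34 ± 0.07 (adjusted p = 0.0171) and CPT1A by 0.30 ± 0.07 (0.047). Both calls depended on single libraries. PLIN2 lost its call without replicate 1 (0.0808) or 3 (0.103) at 500 µg/mL, or 1 (0.0962) or 2 (0.0775) at 20 µg/mL. CPT1A lost it without replicate 1 (0.158), 2 (0.18) or 3 (0.106) at 500 µg/mL, or 2 (0.21) or 3 (0.261) at 20 µg/mL, and between 0 and 1 genes were called with 1 library left out. ACADVL, higher than vehicle at both Yijin-tang doses, differed between them by 0.02 (95% interval -0.11 to 0.16).

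For Okbyeongpung-san none of the 8 genes was called between 500 and 20 µg/mL by edgeR, where 0.979% of all genes were called higher and 0.613% lower. PLIN2, CPT1A, ANGPTL4, PDK4 and ACADVL, 5 of the 8, had an unadjusted p below 0.05 without passing the threshold. Over all genes 9.45% had an unadjusted p below 0.05 in that direction, including those that passed the threshold. Their values were 0.30 (adjusted p = 0.0875), 0.34 (0.0525), 0.40 (0.0813), 0.35 (0.109) and 0.27 (0.085). In these genes both libraries at 500 lay above both at 20 µg/mL, as in 19% of all genes. DESeq2 called 3 of the 8. CPT1A passed with a batch term (0.34, adjusted p = 0.0437) and with the replicate number as a block (0.34, 0.0222), and with that block PDK4 passed too (0.35, 0.0315). Without replicate 3 of the 500 µg/mL group PLIN2 (adjusted p = 0.0203), ANGPTL4 (0.00355) and ACADVL (0.00447) passed, and without replicate 2 CPT1A did (0.0339). Within batch E PLIN2 had a value of 0.41 (0.04) and CPT1A of 0.10 (0.587). Which of the 5 genes passed thus differed with the fit and with the library left out.

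**Figure D3:**
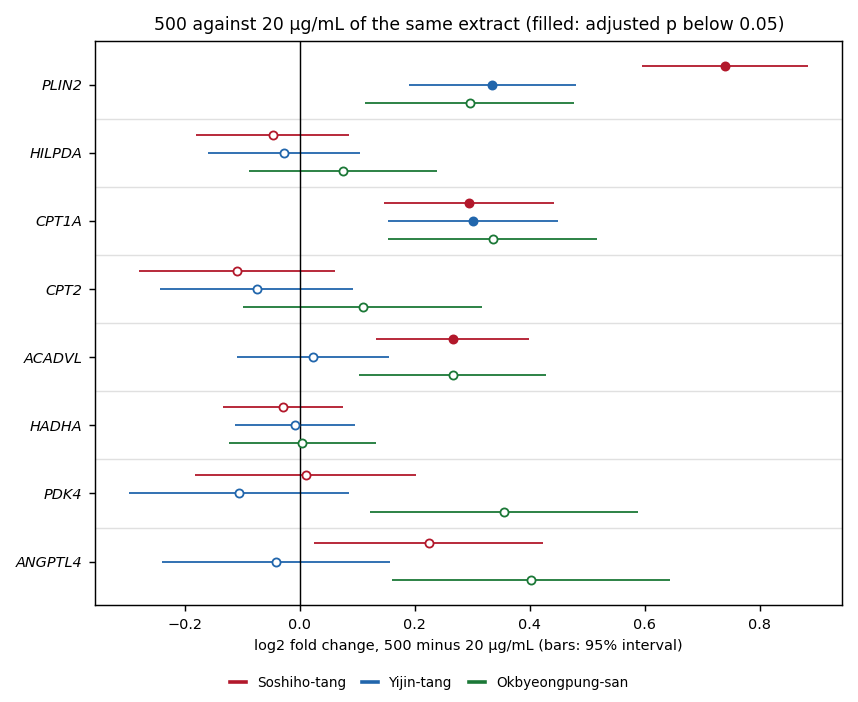
Log2 fold change of 500 against 20 µg/mL of the same extract (horizontal axis) for the 8 genes, with 95% intervals as bars; filled points have an adjusted p below 0.05. PLIN2 is filled for Soshiho-tang (0.74) and Yijin-tang (0.34), and HADHA, CPT2 and HILPDA lie within 0.11 of 0 for all 3 extracts.

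The 3 extracts were compared directly at 500 µg/mL, in 3 pairs. PLIN2 was higher with Soshiho-tang than with Yijin-tang by 0.45 ± 0.07 (adjusted p = 5.54e-05) and than with Okbyeongpung-san by 0.54 ± 0.08 (2.46e-05), and no libraries overlapped. Between Yijin-tang and Okbyeongpung-san it differed by 0.09 (95% interval -0.07 to 0.25). PLIN2 was the 1 gene of the 8 called between Soshiho-tang and Yijin-tang (6.31% of all genes higher and 6.29% lower). The ACADVL value in that pair was 0.17 ± 0.06 (adjusted p = 0.0887), and 0.0286 without replicate 1 of Soshiho-tang. Between Soshiho-tang and Okbyeongpung-san PLIN2 was the 1 gene called higher (9.14% of all genes) and PDK4 the 1 called lower (9.55%).

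PDK4 fell by 0.37 ± 0.10 from Okbyeongpung-san to Soshiho-tang (adjusted p = 0.0124), with no overlap of libraries. That call was lost within batch E (0.126), without replicate 3 of Okbyeongpung-san (0.0835) and without replicate 2 of Soshiho-tang (0.0613). Between Yijin-tang and Okbyeongpung-san 2 genes were called lower with Yijin-tang (1.45% of all genes) and none higher (0.853%), PDK4 by -0.47 ± 0.10 (adjusted p = 0.0167) and ANGPTL4 by -0.42 ± 0.10 (0.0342). PDK4 kept its call within batch E (0.0472) and lost it without replicate 2 of Okbyeongpung-san (0.0708) or of Yijin-tang (0.0551). ANGPTL4 lost its call without replicate 2 of Okbyeongpung-san, where its value was -0.25 (0.839), and without replicate 2 (0.122) or 3 (0.141) of Yijin-tang. ACADVL, at -0.22 ± 0.07 (adjusted p = 0.109), passed without replicate 3 of Okbyeongpung-san (0.00758) and within batch E (0.0141). ANGPTL4 between Soshiho-tang and Okbyeongpung-san, at -0.25 ± 0.10 (0.0952), passed without that replicate too (-0.40, 0.0117), with a batch term (-0.34, 0.0217), within batch E (-0.39, 0.0174) and without a filter (0.0315). Fits on the 2 groups alone lost the PDK4 calls (0.0944 against Soshiho-tang, 0.324 against Yijin-tang) and the ANGPTL4 call (0.517), and an offset for transcript length and GC content lost the ANGPTL4 call (0.081).

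The other genes gave no called difference between extracts, with intervals that bound it. CPT1A differed by 0.11 between Soshiho-tang and Yijin-tang (95% interval -0.03 to 0.26), by -0.08 between Soshiho-tang and Okbyeongpung-san (-0.25 to 0.08) and by -0.20 between Yijin-tang and Okbyeongpung-san (-0.36 to -0.03; adjusted p = 0.191). HADHA stayed within an interval of -0.18 to 0.18 over the 3 pairs and HILPDA within -0.18 to 0.14. CPT2 had its widest interval, -0.34 to 0.04, between Soshiho-tang and Okbyeongpung-san.

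**Figure D4:**
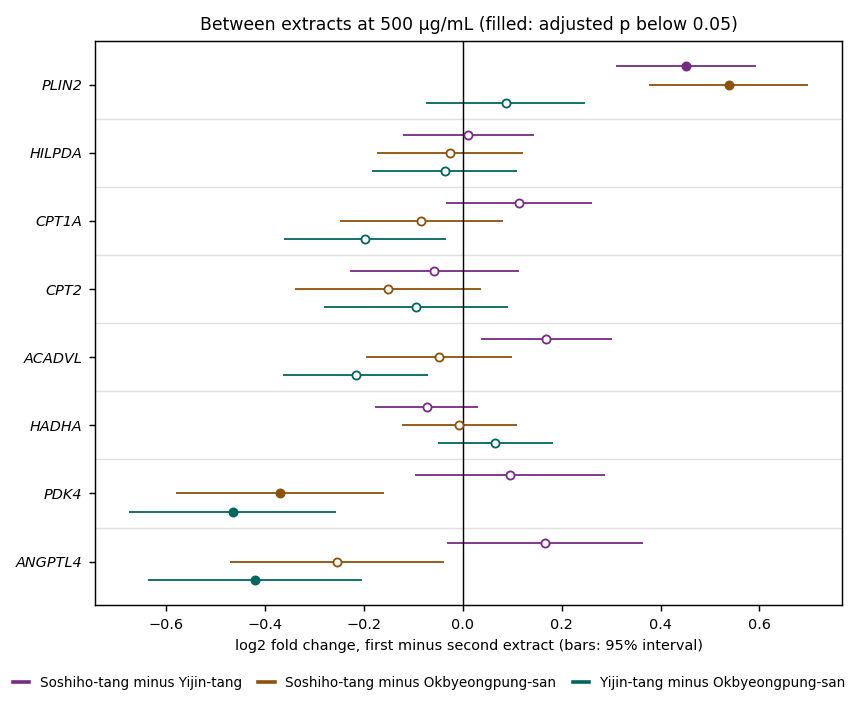
Log2 fold change between extracts at 500 µg/mL (horizontal axis, first extract minus second) for the 8 genes, with 95% intervals as bars; filled points have an adjusted p below 0.05. PLIN2 is higher with Soshiho-tang than with both others, and PDK4 is lower than with Okbyeongpung-san in both of its pairs.

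Among the receptors, PPARG was read highest in vehicle at 33.9 ± 1.28 CPM (SD, n = 3), PPARD at 12.0 ± 0.524 and PPARA at 4.61 ± 0.609. PPARG and PPARA were not called in any comparison. PPARD fell by 0.23 ± 0.09 at 500 µg/mL of Soshiho-tang (adjusted p = 0.0419). At that dose it had a value of -0.25 ± 0.09 with Yijin-tang (0.0562) and of -0.06 with Okbyeongpung-san (0.713). At 20 µg/mL its values were -0.21, -0.18 and -0.29 for Soshiho-tang, Yijin-tang and Okbyeongpung-san, none of them called. Between 500 and 20 µg/mL PPARD differed by -0.02, -0.07 and 0.23 in the same order, again without a call. PPARGC1A, the PPAR coactivator of mitochondrial biogenesis, averaged 0.279 CPM in vehicle and did not pass the filter. Of 13 receptors, RXR partners and coregulators tested, 1 was higher and 5 lower with Soshiho-tang at 500 µg/mL, 0 and 5 with Yijin-tang, and 2 and 4 with Okbyeongpung-san. RXRB rose by 0.30 with Soshiho-tang and by 0.34 with Okbyeongpung-san. Over all genes the shares called higher and lower were 17.2% and 16% with Soshiho-tang, 8.12% and 7.56% with Yijin-tang, and 7.19% and 7.76% with Okbyeongpung-san, and they are the background of each list count below at this dose. The median over these 13 genes was -0.20, -0.21 and -0.17 for the 3 extracts, against 0.01 to 0.02 over all genes. At 20 µg/mL against vehicle it was -0.21, -0.18 and -0.25, and between 500 and 20 µg/mL it was -0.02, -0.05 and 0.04.

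Beyond the 8 genes, 17 other genes of mitochondrial fatty acid oxidation were tested. At 500 µg/mL 8 were higher with Soshiho-tang, 7 with Yijin-tang and 6 with Okbyeongpung-san, and none was called lower in these comparisons. The list's median log2 fold change was 0.19, 0.21 and 0.24. DECR1, the reductase for unsaturated chains, rose by 0.52 ± 0.10 with Soshiho-tang, 0.32 ± 0.10 with Yijin-tang and 0.37 ± 0.11 with Okbyeongpung-san. CPT1B, the muscle form of the carnitine enzyme, rose by 0.53 ± 0.12 with Soshiho-tang, and ACAA2, the last thiolase of the spiral, by 0.38 ± 0.05 with Yijin-tang. Between 500 and 20 µg/mL 5 of the 17 were higher and none lower for Soshiho-tang (10.3% and 10.2% of all genes). None was called for Yijin-tang (0.286% and 0.418%) or Okbyeongpung-san (0.979% and 0.613%). The list's median between these doses was 0.03, 0.04 and 0.01, and at 20 µg/mL against vehicle 0.15, 0.18 and 0.19. Of 11 peroxisomal oxidation genes, 4 were higher and 1 lower at 500 µg/mL of Soshiho-tang against vehicle. There were 4 and 0 with Yijin-tang, and 1 and 0 with Okbyeongpung-san. The peroxisomal thiolase ACAA1 rose with all 3, by 0.27, 0.29 and 0.37. The peroxisomal list's median against vehicle was 0.153, 0.182 and 0.145 at 500 µg/mL and 0.14, 0.14 and 0.18 at 20 µg/mL. Between 500 and 20 µg/mL it was 0.003, 0.04 and -0.04. For Soshiho-tang 1 of the 11 was lower and none higher between these doses (10.2% and 10.3% of all genes). None was called for the other extracts.

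Of 19 genes of lipid droplet coat and assembly other than the 8 genes, 4 were higher and 2 lower at 500 µg/mL of Soshiho-tang, 5 and 0 with Yijin-tang, and 3 and 1 with Okbyeongpung-san, with medians of 0.05, 0.13 and 0.18. BSCL2, the seipin of droplet formation, rose by 0.68 ± 0.10, 0.51 ± 0.10 and 0.62 ± 0.11 with the 3 extracts. PLIN3, a second coat protein of the PLIN2 family, fell by 0.28 ± 0.07 with Soshiho-tang, and LPIN1, a phosphatidate phosphatase, fell by 0.52 ± 0.05 with Okbyeongpung-san. Of 9 genes of lipolysis and its inhibitors, 2 were higher and 2 lower with Soshiho-tang, 1 and 3 with Yijin-tang, and 0 and 1 with Okbyeongpung-san. PNPLA2, the adipose triglyceride lipase that opens droplet breakdown, fell by 0.40 ± 0.09 with Soshiho-tang and by 0.41 ± 0.09 with Yijin-tang. The lysosomal lipase LIPA rose by 0.25 and 0.28 in the same comparisons.

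Of 13 uptake and activation genes, 5 were higher and none lower with Soshiho-tang, 2 and 0 with Yijin-tang, and 3 and 2 with Okbyeongpung-san. VLDLR, a lipoprotein receptor and known PPAR target, rose from 25.5 to 56.0 CPM with Soshiho-tang, a log2 fold change of 1.13 ± 0.05 (adjusted p = 1.45e-13), and by 0.27 ± 0.05 with Yijin-tang. Of 9 pyruvate dehydrogenase kinases and phosphatases other than PDK4, 1 was higher and 2 lower with Soshiho-tang: the phosphatase PDP1 rose by 0.58 ± 0.08, and the kinases PDK2 and PDK3 fell by 0.48 ± 0.09 and 0.41 ± 0.08. With Yijin-tang 1 was higher and none lower (PDP1, 0.32), and with Okbyeongpung-san none was higher and 1 lower (PDP2, -0.39). Of 3 tested regulators of lipoprotein lipase other than ANGPTL4, 1 was higher with Soshiho-tang (LMF1, 0.38) and none was called with the other extracts.

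Of 13 ketogenesis genes and other classic PPAR targets, 3 were higher and 4 lower with Soshiho-tang, 3 and 4 with Yijin-tang, and 1 and 3 with Okbyeongpung-san, with medians of -0.09, -0.02 and 0.13. TRIB3, which is also a target of the amino acid stress factor ATF4, rose by 2.12 ± 0.09 with Soshiho-tang and by 0.54 ± 0.08 with Yijin-tang. UCP2, a mitochondrial carrier, fell by 0.71 ± 0.08, 0.38 ± 0.08 and 0.37 ± 0.09 with the 3 extracts.

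Lists for other known regulators of these genes were measured beside them, and their part in the levels of the 8 genes was not tested. Of 18 other hypoxia-inducible factor targets, 5 were higher and 4 lower with Soshiho-tang, 5 and 0 with Yijin-tang, and 3 and 0 with Okbyeongpung-san, with medians of -0.04, 0.16 and 0.14. VEGFA rose by 0.68 ± 0.06 and EGLN3 fell by 0.85 ± 0.08 with Soshiho-tang. Of 12 glucocorticoid receptor and FOXO targets, 4 were higher and 5 lower with Soshiho-tang, 2 and 5 with Yijin-tang, and 1 and 1 with Okbyeongpung-san, with medians of -0.11, -0.17 and -0.07. TSC22D3 rose by 1.85 ± 0.10, 0.47 ± 0.10 and 0.39 ± 0.11 with the 3 extracts, and SGK1 fell by 0.44 ± 0.06 with Soshiho-tang. Against vehicle at 20 µg/mL the droplet list had medians of 0.07, 0.11 and 0.14 with the 3 extracts. The hypoxia list had 0.13, 0.14 and 0.11. Between 500 and 20 µg/mL these medians were -0.04, 0.02 and 0.04 for droplets and -0.14, 0.002 and -0.005 for hypoxia. Against vehicle the uptake list had 0.14, 0.14 and 0.13 at 500 µg/mL and 0.08, 0.09 and 0.09 at 20 µg/mL. Between these doses it had 0.03, 0.04 and 0.02.

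**Figure D5:**
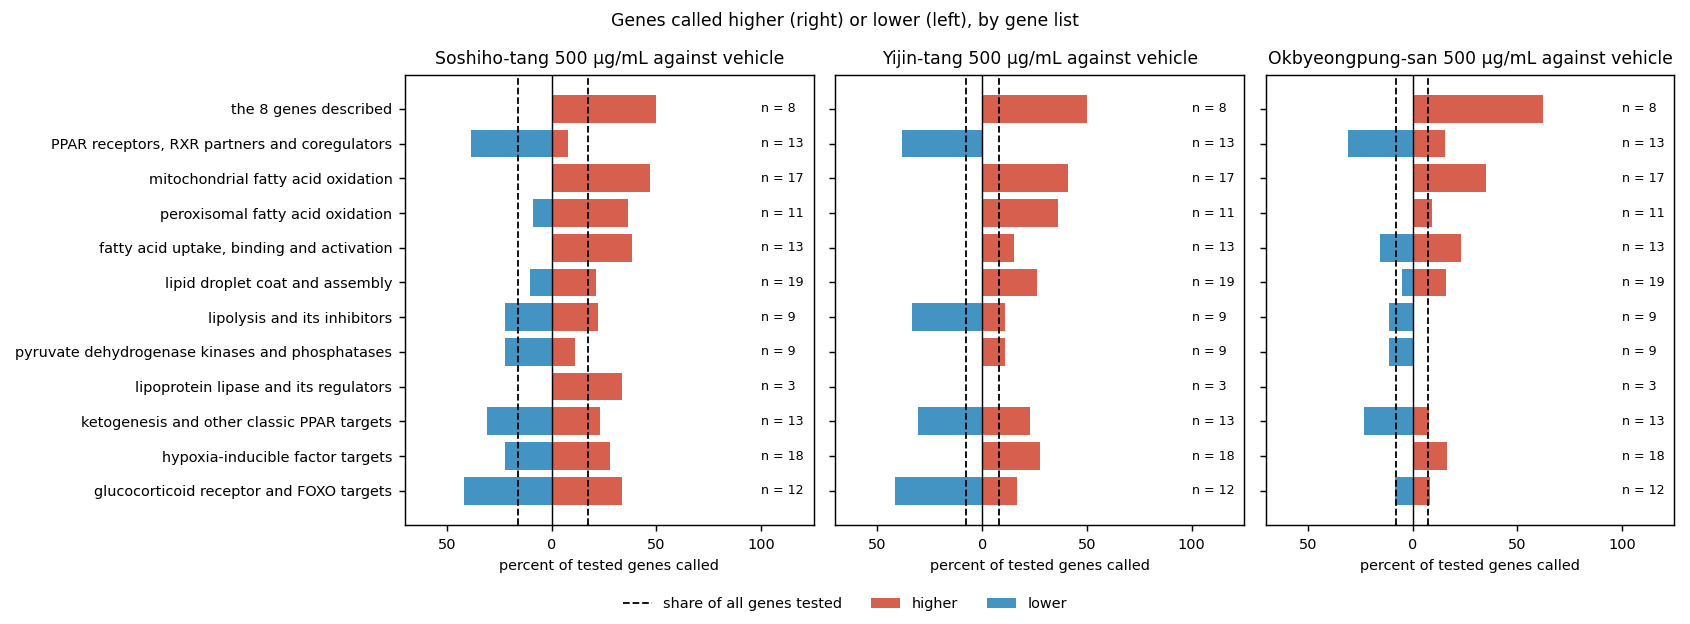
Percent of tested genes called higher (bars to the right) or lower (bars to the left) at 500 µg/mL against vehicle, for the 8 genes and 11 lists, 1 panel per extract; dashed lines give the shares over all 17459 genes, and n is the number tested. None of the 8 genes and none of the 17 other mitochondrial oxidation genes is called lower in these 3 comparisons.

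Over the 13 group means, as a description of groups that share the vehicle scale and the same sequencing, CPT1A and ACADVL varied most alike among the 8 genes (Pearson r = 0.82, n = 13), followed by PLIN2 and ACADVL (0.77). PLIN2 and PDK4 were at 0.17 and CPT2 and PLIN2 at -0.16. By ranks (Spearman) the order differed: PLIN2 and ACADVL were at 0.75, ANGPTL4 and ACADVL at 0.71, and CPT1A and ACADVL at 0.69. Among 11185 other genes, those most like PLIN2 were ASAH1 (r = 0.98), PHGDH (0.98) and ASNS (0.97). Those most like CPT1A were CTTN (0.95), NRBP2 (0.94) and DNPEP (0.93), those most like ACADVL were NSUN5P2 (0.95), MAN1B1 (0.95) and RSAD1 (0.94), and those most like HADHA were PRMT2 (0.96), TOR1A (0.93) and ARFIP2 (0.91). For PDK4 they were PPP6R2 (0.92), RGL2 (0.92) and TECPR1 (0.90), and for ANGPTL4 B3GNT9 (0.90), RPL13 (0.89) and IGFBP6 (0.88). CPT2 had its closest match in RAB27A (0.75), and HILPDA in ANXA13 (0.86).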

How the data were processed

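RNA sequencing libraries (30) from A549 cells were read from the deposited table of expected counts per Ensembl gene, made by the authors with RSEM 1.3.3. Per the submitters' processing notes, FastQC 0.11.9, Trim Galore 0.6.5 and STAR 2.7.3a were also used, with builds hg38 and GRCh38. The kit was directional per the labels; the annotation release and strand setting are not given in the sources used here. The 8 genes and all lists were chosen with earlier results of these data known.

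Counts were rounded, since 9.09% to 11.6% of a library's values were not whole (tolerance 0.001). A further 30 columns held no values and were not used. In R 4.3.3, edgeR 4.0.16 (TMM, filterByExpr, quasi-likelihood) fitted 27 libraries in 10 groups, without Soyo-san, and tested 17459 genes in 15 comparisons with Benjamini-Hochberg adjustment. Levels are TMM-adjusted CPM. The 8 genes are named throughout; of each other list, up to 2 called genes with the largest rise and 2 with the largest fall among those averaging 2 or more log2 CPM. Likeness names the 3 genes with the highest r. The test was checked on simulated data. Alternatives were RLE scaling, DESeq2 1.42.0, no filter, a replicate block, a batch term, batch E only, a length and GC offset, the groups compared alone, and each library left out. Water extracts and wortmannin, which the series text names, were not analysed here.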

Additional observations from a re-analysis of the deposited data

Results flagged for a closer look

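In 5 results an extract differed from another in its effect on 1 of the 8 genes at 500 µg/mL, by the direct test between extracts in which the shared vehicle cancels. PLIN2 was higher with Soshiho-tang than with Yijin-tang by 0.45 on the log2 scale and than with Okbyeongpung-san by 0.54, and both calls were kept under each alternative and with any 1 library left out. PDK4 was lower with Soshiho-tang than with Okbyeongpung-san, by -0.37, and lower with Yijin-tang than with Okbyeongpung-san, by -0.47. ANGPTL4 was lower with Yijin-tang than with Okbyeongpung-san, by -0.42. In the same order these 3 calls were lost under 4, 3 and 5 of 13 alternatives, and without replicate 2 of Okbyeongpung-san the ANGPTL4 value was -0.25 (adjusted p = 0.839). The last 3 values all involve the 2 Okbyeongpung-san libraries that stood apart from each other in depth and mitochondrial share, and the part of that difference in them was not tested.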

How the results depend on the processing

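Of 35 calls among 120 results for the 8 genes, 17 were kept under each alternative and 18 were lost under 1 or more, 9 of them only when a library was left out. Of 85 results not called, 21 were called under 1 or more. Over 1624 recomputed values, 1510 kept their side of the threshold, 61 lost a call, 53 gained one and 0 changed direction as called values. Direction was not compared where a value was called in neither fit, and some of these changed sign.

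Counts below are of the 8 genes or of all genes called, with the count reported here in brackets. The cause of each move was not tested. Fits on fewer libraries have fewer residual degrees of freedom, and the part of this in the moves was not tested either. With DESeq2, 500 against 20 µg/mL of Okbyeongpung-san gave 3 of the 8 (0) and 514 genes (278), and RLE scaling gave 1 of the 8. Without a filter that comparison gave 4 and 889 genes, Okbyeongpung-san at 20 µg/mL 2 of the 8 (1), Yijin-tang 500 against 20 µg/mL 241 genes (123), and Yijin-tang against Okbyeongpung-san 909 genes (403). With batch E only, Okbyeongpung-san gave 4017 genes at 500 µg/mL (2610), 1 of the 8 (2) and 767 genes (1656) at 100 µg/mL, 2 of the 8 (1) and 531 genes (1773) at 20 µg/mL, and 1 of the 8 (0) and 1553 genes (278) between 500 and 20 µg/mL. Against Okbyeongpung-san it gave 5134 genes for Soshiho-tang (3263) and 3802 for Yijin-tang (403). With a batch term, Okbyeongpung-san gave 1032 genes at 100 µg/mL, 1169 at 20 µg/mL, 436 and 1 of the 8 between 500 and 20 µg/mL, and 1711 against Yijin-tang. With the length and GC offset, 3 of the 8 were called for Soshiho-tang at 20 µg/mL (1), 5 for Yijin-tang at 100 µg/mL (3), 2 for Okbyeongpung-san at 20 µg/mL (1), 1 between its 500 and 20 µg/mL (0), 3 between Soshiho-tang and Yijin-tang (1) with 3513 genes (2200), and 1 between Yijin-tang and Okbyeongpung-san (2). It also gave 2736 genes for Yijin-tang at 20 µg/mL (1789) and 306 between its 500 and 20 µg/mL (123).

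With the groups compared alone, Soshiho-tang at 20 µg/mL gave 3 of the 8 (1) and 2843 genes (1401), Yijin-tang at 500 µg/mL 4180 genes (2737), Yijin-tang at 20 µg/mL 1 of the 8 (2), and Okbyeongpung-san 350 genes at 500 µg/mL (2610), 4 of the 8 (2) and 4447 genes (1656) at 100 µg/mL, and 3 of the 8 (1) and 4581 genes (1773) at 20 µg/mL. Between 500 and 20 µg/mL it gave 0 of the 8 (2) and 45 genes (123) for Yijin-tang and 0 genes (278) for Okbyeongpung-san. Against Okbyeongpung-san it gave 1 of the 8 (2) and 585 genes (3263) for Soshiho-tang and 0 of the 8 (2) and 3 genes (403) for Yijin-tang.

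Replicate numbers were not taken to pair the libraries: of 111 same-numbered pairs, 19 had deviations correlated above 0.1, with a median of 0.019. Between Yijin-tang at 100 and 20 µg/mL, which are not compared here, all 3 pairs were above it (0.304, 0.121 and 0.206). Between 500 and 20 µg/mL, which are compared, replicates 1, 2 and 3 had 0.145, 0.157 and 0.008 for Yijin-tang. For Soshiho-tang they had 0.076, -0.055 and 0.136. With the replicate number as a block, 2 of the 8 were called at 20 µg/mL of Okbyeongpung-san (1), 2 between its 500 and 20 µg/mL (0), and 622 genes between Yijin-tang and Okbyeongpung-san (403), while 500 µg/mL of Soshiho-tang gave 4 of the 8 and 6065 genes (5783).

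With 1 library left out in turn, all-gene counts ran from 681 to 2136 (1879) and 498 to 1125 (1401) for Soshiho-tang at 100 and 20 µg/mL, 1615 to 2415 (2737), 1214 to 2405 (2568) and 555 to 2100 (1789) for Yijin-tang at 500, 100 and 20 µg/mL, and 1250 to 4388 (2610), 188 to 1107 (1656) and 279 to 1181 (1773) for Okbyeongpung-san. Between 500 and 20 µg/mL they ran from 70 to 108 (123) for Yijin-tang and 40 to 3987 (278) for Okbyeongpung-san. Between extracts they ran from 1346 to 1811 (2200) for Soshiho-tang and Yijin-tang, 1235 to 5406 (3263) for Soshiho-tang and Okbyeongpung-san and 41 to 4109 (403) for Yijin-tang and Okbyeongpung-san. Counts of the 8 genes ran from 0 to 1 for Soshiho-tang at 20 µg/mL, 1 to 4 and 1 to 2 for Yijin-tang at 100 and 20 µg/mL, 0 to 2 and 0 to 1 for Okbyeongpung-san at 100 and 20 µg/mL, 0 to 1 and 0 to 3 between 500 and 20 µg/mL of Yijin-tang and Okbyeongpung-san, and 1 to 2, 1 to 2 and 0 to 3 between the 3 pairs of extracts in the order above.

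What depth limits among the 8 genes was not tested. CPT2, at 12.8 to 14.7 CPM in vehicle, had a 95% interval of -0.18 to 0.18 at 500 µg/mL of Soshiho-tang. The calls of the receptors and of the other lists were not recomputed under the alternatives.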
